A study of Mus musculus with 21 samples.

Results

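The cytosolic ribosomal protein genes encode the proteins of the large and small ribosomal subunits. They were taken from the deposited gene table by name: Rpl or Rps followed by a number and at most a letter a, l or x, together with Rplp0, Rplp1, Rplp2 and Rpsa. Names marked as pseudogenes with -ps were left out, and so were 2 genes close to Erbb2 on chromosome 11, Rpl19 and Rpl23. This left 80 members of the 23203 genes in that table, 48 of the large and 32 of the small subunit, spread over 19 chromosomes. The label held for 77 members, which are protein coding, whereas 3 (Rps4l, Rpl6l and Rpl32l) are annotated as processed pseudogenes despite their names.

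RNA was sequenced from 21 mouse mammary tumors that all carried FloxNeoNeuNT, an activated Neu cDNA placed in the Erbb2 locus behind a Cre-removable stop, and MMTV-CreNLST, a Cre whose promoter is active in the mammary epithelium. The 12 RhoC tumors also carried R26(RhoC/+), a Cre-dependent RhoC cDNA in the Rosa26 locus, and came from 8 mice: 4 tumors from P497, 2 from N9255 and 1 from each of the others, where R-18, which has no mouse in its label, was taken as a mouse of its own. The 9 control tumors came from 9 mice without the RhoC allele, of which 7 were also Gata4(loxP/+) and 2 (N-15 and N-17) were not. All mice were virgin females. Krt8, Krt18 and Epcam, which mark the mammary epithelium, were read in every tumor, with Krt8 between 155 and 1554 CPM. The 10 epithelial markers summed to between 1212 CPM in R-10 and 18592 in R-6. Krt5, Krt14 and Krt19 were each below 0.1 CPM in at least 1 RhoC tumor, as was Krt5 in the control N-8 (0.058 CPM). Ages at collection were not analysed here, and the study describes tumors forming earlier in RhoC mice, so age and genotype cannot be told apart. The study's sample list gives squamous cell carcinoma (SCC) as the histology of 3 RhoC tumors, R-6 of mouse N9255 and both R-13 and R-14 of mouse P497, so these 3 come from 2 mice, and no control with a listed histology has that one. The list gives none for N-17, R-18 and R-21. Each tumor is 1 bulk sample, in which fewer cells of a type and less RNA per cell cannot be told apart.

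Every cell needs ribosomes, and the ribosomal protein mRNAs are among the most abundant in growing tissue. In vertebrates they belong to the 5′ TOP mRNAs, which begin with a cytosine and a run of pyrimidines, and their translation is controlled together through mTOR and the binding protein LARP1. Unused Rpl5 and Rpl11 bind Mdm2, the ubiquitin ligase that keeps p53 low, so that the proteins also serve as a sensor of ribosome assembly.

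The 5′ pyrimidine run can be read directly at the gene starts. A RefSeq start window on GRCm38.p6 was found for 58 of the 80 members. A cytosine followed by at least 4 more pyrimidines stood exactly at the annotated start in 14 of these 58 genes (24.1%), against 813 of the 27025 genes in the whole table (3.01%). A run of at least 8 pyrimidines somewhere in the 30 bases centered on the start was found in 26 of 58 members (44.8%) and in 13.9% of all genes. The windows below show 15 bases on each side of the start, 5′ to 3′, with the longest or start-anchored run in capitals. Rpl15, Rps6, Rps27, Rpl38 and Rplp2 are shown because the run begins at the start base, and Rps26 and Rps24 because it begins 3 bases after or before it. Rpl27 and Rpl22 are shown because they are among the members that differed most between the cohorts and have only short runs in these windows. Both of these windows end before the deposited start of the gene, so a run at that start would not be seen. Rpl22 has another RefSeq start, not shown, where the longest run was 5 bases.
Rpl15 (chr14:18270972-18271001, minus strand): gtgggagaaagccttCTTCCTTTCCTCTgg
Rps6 (chr4:86857353-86857382, minus strand): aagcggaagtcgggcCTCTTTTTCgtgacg
Rps27 (chr3:90213634-90213663, minus strand): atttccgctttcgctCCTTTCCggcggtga
Rpl38 (chr11:114668565-114668594, plus strand): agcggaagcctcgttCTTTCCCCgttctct
Rplp2 (chr7:141447636-141447665, plus strand): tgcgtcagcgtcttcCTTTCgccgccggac
Rps26 (chr10:128626492-128626521, minus strand): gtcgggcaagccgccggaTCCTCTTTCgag
Rps24 (chr14:24490663-24490692, plus strand): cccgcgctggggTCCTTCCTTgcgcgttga
Rpl27 (chr11:101442230-101442259, plus strand): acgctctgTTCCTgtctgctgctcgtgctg
Rpl22 (chr4:152325711-152325740, plus strand): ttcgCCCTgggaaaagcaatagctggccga
The run was 13 bases long in Rpl15, 9 in Rps6, 8 in Rpl38, 7 in Rps27 and 5 in Rplp2. Within the 300-base windows, searched on both strands, CCGGAAG, the core that ETS factors bind, occurred in 24 of 58 members (41.4%) and in 9.93% of all genes. AAGATGGC, the YY1 core, occurred in 5 members (8.62%, against 3.19% of all genes), the E-box CACGTG in 4 (6.9%, against 8.09%) and TATAAA in 7 (12.1%, against 15.7%). These matches describe the letters in the windows only, and annotated starts can lie some bases away from the start used in these tumors.

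Total counts per tumor ranged from 47309780 to 100741339. Values below are CPM, the reads of a gene scaled to a common TMM-adjusted library size, unless FPKM is named, and the members took between 1.02% and 2.9% of all counted reads. Rhoc itself ranged from 25.98 to 172 CPM (median 50.7) in the controls and from 22.8 to 148 (median 88.2) in the RhoC tumors, so the cohorts, which are named here by their labels, overlapped for the gene that defines them. The control N-4 stood apart: across 14181 protein-coding genes the deviation of its log2 CPM from each gene's median fell with GC content of the transcripts (Pearson r = -0.57, over genes of 1 library), while r lay between -0.23 and 0.13 in the other 20 tumors. N-4 also had 77979 CPM on the 13 genes encoded in mitochondria, against 8646 to 35884 in the others. The control N-17 held 7150 CPM of 12 skeletal muscle marker genes and 962 CPM of 8 adipocyte marker genes. Both were kept in the comparisons, and values without them are given where they moved a result.

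The members moved together from tumor to tumor, over a range that both cohorts shared. Summed over the 80 members, the controls held 19404 CPM in N-1, 18420 in N-3, 12243 in N-4, 16289 in N-6, 22433 in N-7, 18874 in N-8, 27124 in N-9, 21577 in N-15 and 11006 in N-17. The 12 RhoC tumors ranged from 13132 in R-16 to 31673 in R-13, with a median of 18657. The lowest and the highest controls differed 2.46-fold, and the extremes of all 21 tumors 2.88-fold. The cohort means were 18597 ± 5005 CPM (SD, n = 9) in the controls and 19896 ± 5595 (SD, n = 12) in the RhoC tumors, a ratio of 1.07, and this difference was smaller than the SD of either cohort. Of the 12 RhoC tumors, 6 lay above the control median of 18874.

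**Figure D1:**
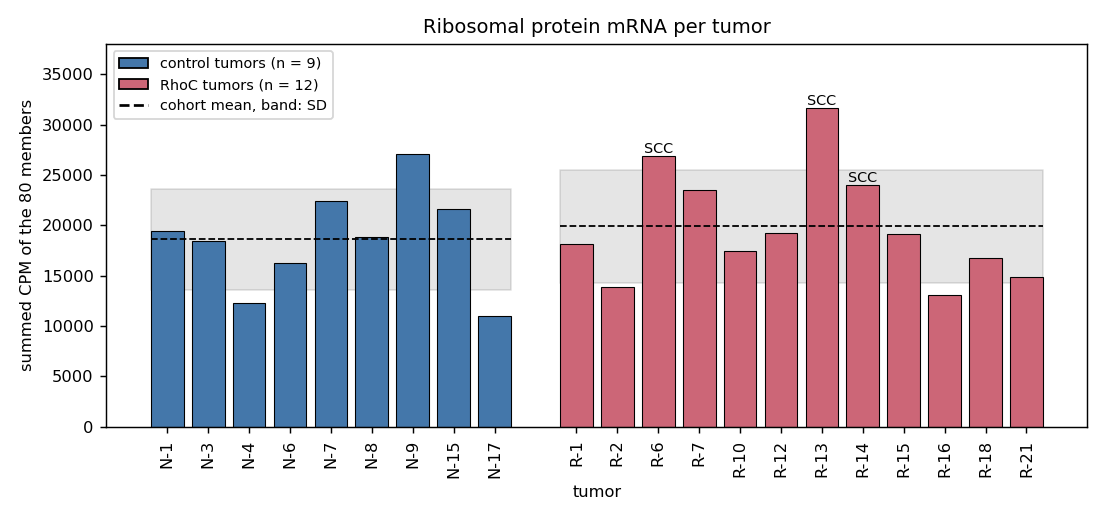
Summed CPM of the 80 ribosomal protein genes (y axis) in each tumor (x axis), controls in blue and RhoC tumors in red, with the cohort mean as a dashed line, its SD as a band and SCC marking the squamous cell carcinomas. The cohorts overlapped, from 11006 CPM in N-17 to 27124 in N-9 among controls and from 13132 in R-16 to 31673 in R-13 among RhoC tumors.

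The 3 squamous cell carcinomas held 31673 CPM (R-13), 26848 (R-6) and 24021 (R-14), and the other 9 RhoC tumors between 13132 and 23549 with a mean of 17357 ± 3206 (SD). Without the 3 carcinomas the ratio of the cohort means was 0.932 in place of 1.07. The control N-9, listed as a solid nodular carcinoma, reached 27124. The 10 keratinocyte marker genes summed to 11964 CPM in R-6, 4236 in R-13 and 1408 in R-14, against at most 1078 in any control and 432 in any other RhoC tumor. The list did not move as 1: Krt16, Krt6a and Krt6b reached 4774, 4610 and 1707 CPM in RhoC tumors and at most 164, 530 and 112 in controls, while Krt10 reached 285 CPM in a control and at most 2.54 in RhoC tumors, Krt1 45.6 and 1.92, and Flg 82.9 and 17.1. N-9 had the lowest sums of the fibroblast, endothelial and macrophage marker lists of all tumors, at 372, 144 and 336 CPM, where the highest were 12279 (in R-13), 862 (in N-17) and 1315 (in R-15). The part of these cell types in the level of the ribosomal protein genes was not tested. The 4 tumors of mouse P497 alone spanned 13132 to 31673 CPM, 2.41-fold, so the lowest and the highest RhoC tumor came from the same mouse. The 2 tumors of N9255 held 26848 and 23549 CPM.

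Counted gene by gene, mostly the same tumors stood at the ends. Among the 75 protein-coding members with a mean log2 CPM above 0, 74 were above their own median over the 21 tumors in R-13, 71 in R-14, 70 in R-6 and N-9, and 68 in N-7 and R-7. In N-17 none of the 75 was above its median, in R-16 only 2 were and in R-2 only 4. N-4, whose sum was the lowest but for N-17, had 16 above. R-13 was the highest of all tumors for 37 of the 75, and N-17 and N-4 were each the lowest for 29. The first principal component of the log2 CPM of these 75 genes held 62.4% of their variance and the second 15.5%. A member had a median SD of 0.48 on the log2 scale over the 21 tumors, and of 0.29 after the mean of all 75 members in each tumor was subtracted. Without N-4 these were 0.45 and 0.25, and the components held 65.5% and 11.8%.

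**Figure D2:**
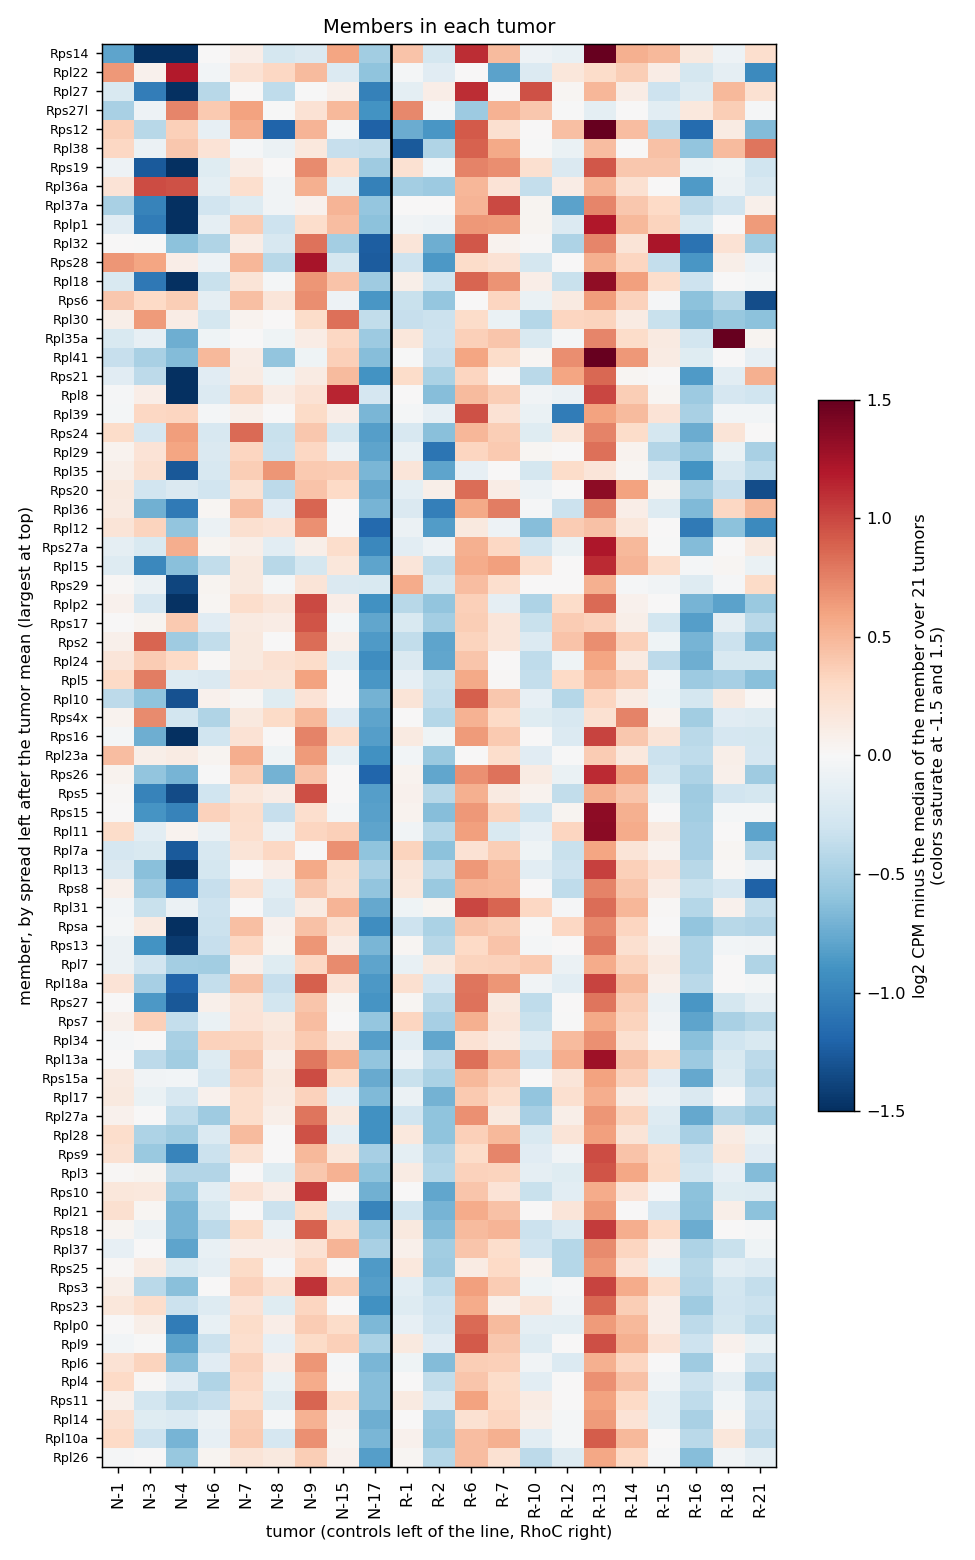
Log2 CPM minus the member's own median over the 21 tumors (color), for 75 members (rows, ordered by the spread left after subtracting the tumor mean, largest at the top) in each tumor (columns, controls left of the line). Columns such as R-13, with 74 of 75 members above their median, and N-17, with 0 of 75, are of 1 color nearly throughout, while N-4 is mixed.

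In N-17 all 75 of these well-expressed coding members lay at or below their medians, with an interquartile range from -0.88 to -0.61 log2 units around their medians. In N-4 the interquartile range ran from -1.24 to -0.19, a width of 1.05 against 0.21 to 0.59 in the other tumors. In N-4 Rps19 lay 2.25 log2 units below its median, and Rpl22 lay 1.19 above it. The deviations of the 75 members in N-4 fell with GC content (r = -0.44, over genes), where r in the other tumors lay between -0.36 in R-2 and 0.32 in R-13, and the members' GC content ran from 41.3 to 60.8%.

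Members differed in how closely they followed the rest. Rpl26, which lines the rim of the exit tunnel, and Rpl10a followed most closely, with an SD of 0.13 and 0.14 left after the tumor mean was subtracted. Rps14 (0.64), Rpl22 and Rpl27 (both 0.56), and Rps27l (0.56) followed least, and for all 4 the farthest tumor was N-4. Without N-4 the SDs were 0.53 for Rps14, 0.40 for Rpl22, 0.46 for Rpl27 and 0.50 for Rps27l, and Rpl38 (0.48) and Rps12 (0.47) then lay above Rpl27 and Rpl22. Rpl14 (0.12) then followed most closely, ahead of Rpl26 (0.13). Single tumors stood out for single genes: Rpl35a lay 1.55 log2 units above the tumor mean in R-18, and Rpl38, a large-subunit protein needed for axial patterning of the mouse embryo, lay 1.31 below it in R-1. By SD over the 21 tumors without that subtraction, Rps14 (0.82), Rps12 (0.74) and Rps19 (0.71), the last a small-subunit protein mutated in Diamond-Blackfan anemia, varied most. Without N-4 these SDs were 0.67, 0.75 and 0.50, so that Rps12 led and Rps19 fell to rank 20 of 75. Rps12 ranged from 63.5 CPM in N-17 to 443 in R-13.

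The comparison of the cohorts asked whether ribosomal protein mRNA differs in tumors that carry the RhoC allele. None of the 79 members that passed the filter on low counts was called at an adjusted p of 0.05 (edgeR's quasi-likelihood test, Benjamini-Hochberg adjustment over all 19315 genes tested), where the background was 0.223% of genes called (0.0932% higher and 0.129% lower in RhoC tumors). At an unadjusted p under 0.05 there were 8 members, 7 higher and 1 lower in RhoC tumors, or 10.1% of the 79 against a background of 20.5% of all genes (10.5% higher, 9.93% lower). The members' median log2 fold change was 0.12, with 52 positive and 27 negative values between -0.40 and 0.82. Positive values made up 65.8% of the members and 49.6% of all genes, whose median was -0.01. The large-subunit members had a median of 0.10 and the small-subunit members of 0.13. The standard errors of the 75 well-expressed coding members lay between 0.16 and 0.32. DESeq2, run on the same counts, called 2 members, Rpl15 (adjusted p = 0.028) and Rpl27 (adjusted p = 0.048), where it called 5.71% of genes, and had 7 at an unadjusted p under 0.05, against 14.6% of genes. For all 80 members the ranges of the cohorts overlapped, and over all genes tested they failed to overlap in only 3 (0.0155%).

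The direction of the median rested on few tumors. Without the 3 squamous cell carcinomas it was -0.08, with 29 members positive and 50 negative, and at an unadjusted p under 0.05 there were 2 higher and 5 lower members, where 15.3% of all genes were under it. With the counts of each mouse summed it was -0.03, with 31 positive. Without N-4 the median was 0.05 and the count at an unadjusted p under 0.05 was 3 (Rpl15, Rpl27 and Rps14, where the share of all genes was 17.5%), and without the 4 tumors of P497 the median was 0.05 and that count was 3 (11.6% of all genes). Without R-13 the median was 0.03 and the count 5 (17.8% of all genes), and without N-9 the median was 0.20. Without N-17 there were 46 positive members, and 4 higher and 4 lower at an unadjusted p under 0.05 (20.5% of all genes). The count was also 5 without N-1 and 4 without N-3 or R-7, in fits where 18.3%, 18.1% and 19.6% of all genes were under it, so the members' share lay below that of all genes in each of these fits. No member was called when any single tumor was left out.

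**Figure D3:**
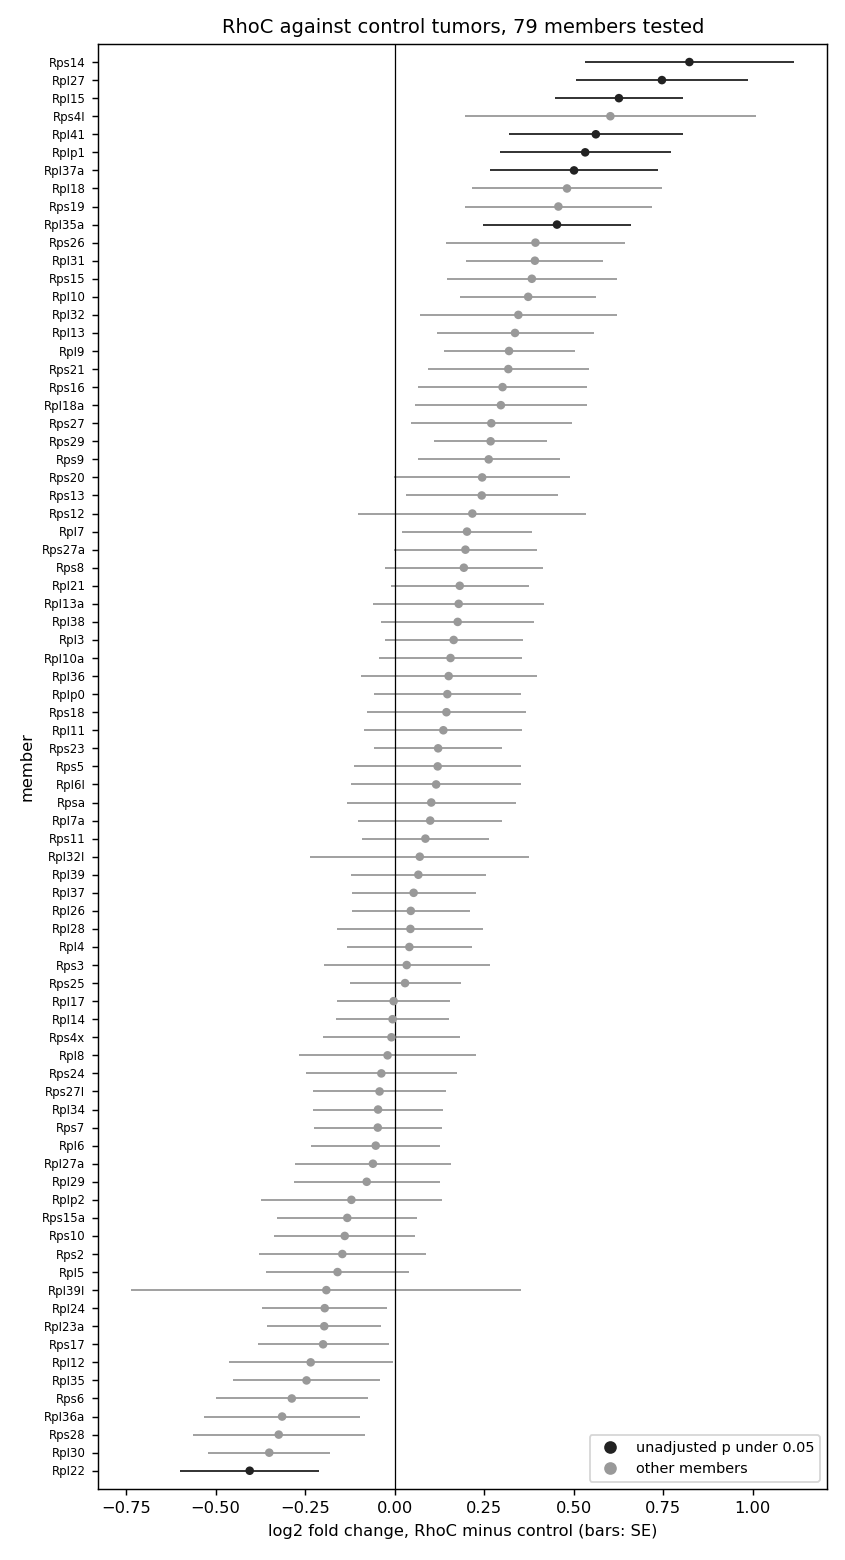
Log2 fold change of RhoC minus control tumors (x axis, bars are SE) for the 79 members tested (y axis), with the 8 members at an unadjusted p under 0.05 in black. Values ran from -0.40 for Rpl22 to 0.82 for Rps14, 52 of 79 were positive, and none passed the adjusted threshold.

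Rpl15 (ENSMUSG00000012405.16, chr14:18267823-18271391), a large-subunit protein, had the smallest p of all members. In the controls it ranged from 63.1 to 139 CPM (median 95.6) and in the RhoC tumors from 95.5 to 268 (median 143). The ranges overlapped, but 11 of 12 RhoC tumors lay above the control median and no control above the RhoC median. Its log2 fold change was 0.63 (SE 0.18), with p = 0.0021 and an adjusted p of 0.089. Over the alternatives the fold change stayed positive, from 0.43 to 0.70 on the log2 scale.

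Rpl27 (ENSMUSG00000063316.13, chr11:101442298-101445529), another large-subunit protein, lies on the chromosome of Erbb2 outside the region left out. It ranged from 53.9 CPM in N-4 to 248 in the controls (median 182) and from 191 to 509 in the RhoC tumors (median 254). Every RhoC tumor exceeded the middle control, although the ranges overlapped. The difference on the log2 scale was 0.75 (SE 0.24), with an adjusted p of 0.11. It was 0.62 without N-4, the lowest control. Over the alternatives it ranged from 0.26, in the 8 tumors of the replicate block, to 0.86 without P497, and it was 0.38 in the same 8 tumors with no block.

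Rps14 (ENSMUSG00000024608.11), a protein of the small subunit's platform, ranged from 34.4 to 237 CPM in the controls (median 132) and from 131 to 491 in the RhoC tumors (median 200). Its difference was 0.82 on the log2 scale (SE 0.29, adjusted p = 0.14), and 0.50 without the squamous cell carcinomas. Its lowest value was in N-4 and its highest in R-13, the same 2 tumors as for Rplp1 and Rpl41.

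Rplp1, an acidic stalk protein that helps to recruit elongation factors, ranged from 53.3 to 232 CPM in the controls (median 150) and from 144 to 388 in the RhoC tumors (median 192), which is a log2 difference of 0.53 (SE 0.24) at an adjusted p of 0.22. It was 0.34 without the squamous cell carcinomas and 0.22 in the 8 tumors that share replicate numbers. Its stalk partners had other values, 0.15 (SE 0.21) for Rplp0, which was 0.05 without N-4, and -0.12 (SE 0.25) for Rplp2, which was 0.05 without N-9 and -0.25 without R-13. Whether the 3 differ from each other was not tested. Rpl41, a very short and basic protein, had a log2 difference of 0.56 (SE 0.24) at an adjusted p of 0.20, which was 0.22 without the squamous cell carcinomas, 0.32 without P497, 0.34 without R-13 and 0.04 in the 8 tumors that share replicate numbers. The remaining members at an unadjusted p under 0.05 were Rpl35a with 0.45 (SE 0.21), or 0.27 without R-18, its highest tumor, and Rpl37a with 0.50 (SE 0.23).

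On the lower side Rpl22 (ENSMUSG00000028936.15, chr4:152325742-152334071), a large-subunit protein whose loss blocks a lineage of T cells, ranged from 60.3 to 208 CPM in the controls (median 107) and from 47.3 to 118 in the RhoC tumors (median 86.6). Only 2 of 12 RhoC tumors lay above the control median. Its log2 difference was -0.40 (SE 0.19) with p = 0.049 and an adjusted p of 0.24, and -0.25 without N-4, where it was highest. Rpl30 had a log2 fold change of -0.35 (SE 0.17) and an adjusted p of 0.25, with 8 of 9 controls above the RhoC median of 76.6 CPM. Without the squamous cell carcinomas it was -0.51.

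Rps6, the protein that S6 kinase phosphorylates when mTOR is active, ranged from 268 to 796 CPM in the controls (median 603) and from 195 to 757 in the RhoC tumors (median 471). That is -0.29 on the log2 scale (SE 0.21, adjusted p = 0.45). Rpl36a had -0.31 (SE 0.22, adjusted p = 0.42), or -0.20 without N-3, and Rps28 -0.32 (SE 0.24, adjusted p = 0.45), or -0.15 without N-9.

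**Figure D4:**
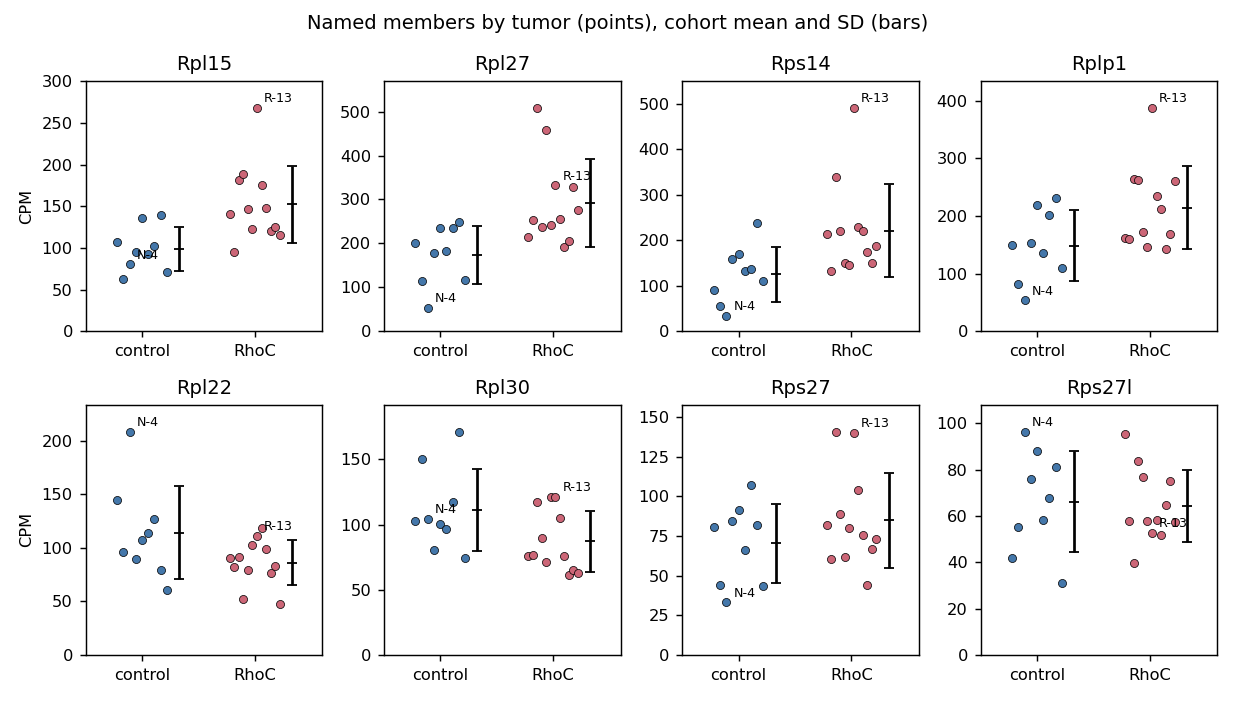
CPM (y axis) of 8 members in each tumor (points), controls in blue and RhoC tumors in red, with the cohort mean and SD as black bars and N-4 and R-13 marked. Rpl15, Rpl27, Rps14 and Rplp1 were higher on average in RhoC tumors with overlapping ranges, N-4 lay lowest for Rpl27, Rps14 and Rplp1 and highest for Rpl22, and Rps27l had cohort means of 66.2 and 64.3 CPM.

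The members that link the ribosome to p53 had small differences within their spread. Rpl5 had a mean of 530 ± 167 CPM (SD, n = 9) in the controls and 475 ± 141 (SD, n = 12) in the RhoC tumors, and a log2 fold change of -0.16 (SE 0.20), which was -0.06 without N-3, its highest tumor at 811 CPM. Rpl11 had 96.6 ± 20.9 and 106 ± 49.8 CPM and a log2 fold change of 0.14 (SE 0.22), which was -0.20 without the squamous cell carcinomas and -0.04 without R-13. In the same tumors 8 of 11 tested genes of the p53 and Mdm2 pathway were at an unadjusted p under 0.05, all higher in RhoC tumors (the background in that direction was 10.5% of genes), and none passed the adjusted threshold. The count was 5 without N-4 and 3 without the squamous cell carcinomas, all of them higher, where 17.5% and 15.3% of all genes were under it in either direction. Zmat3, an RNA-binding target of p53, had 91.4 ± 30.2 CPM in the controls and 194 ± 78.99 in the RhoC tumors (log2 difference 1.09, SE 0.23, adjusted p = 0.053). It passed the threshold with DESeq2 (adjusted p = 0.0014), with only the Gata4(loxP/+) controls (adjusted p = 0.033) and with edgeR when N-6, N-15, R-1, R-10, R-12, R-18 or R-21 was left out (adjusted p = 0.031 without N-15). It did not pass with the counts of each mouse summed (adjusted p = 0.19) or with voom (adjusted p = 0.13), and in the 8 tumors that share replicate numbers its log2 difference was 0.42 with the block (adjusted p = 0.76) and 0.41 with none (adjusted p = 0.61). Of the other genes of that list, Cdkn1a, the cell cycle inhibitor p21, passed without N-15 (adjusted p = 0.037), with only the Gata4(loxP/+) controls (adjusted p = 0.039) and with DESeq2 (adjusted p = 0.022), Cdkn2a passed without N-3 (adjusted p = 0.043) and Ccng1 with DESeq2 (adjusted p = 0.046). None of these 3 passed with the counts of each mouse summed or with voom, and they were named after their values were seen. Mdm4, a p53 inhibitor, had a log2 fold change of -0.04 (SE 0.19).

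Rps27l is a paralog of Rps27 that p53 can induce. It had 66.2 ± 21.6 CPM in the controls and 64.3 ± 15.6 in the RhoC tumors, and its log2 fold change of -0.04 (SE 0.19) changed sign in 4 of 11 alternative fits. Its partner Rps27, a zinc-binding small-subunit protein, had 70.3 ± 25.1 and 84.8 ± 30.1 CPM. The log2 ratio of Rps27l to Rps27 was -0.07 ± 0.71 in the controls and -0.36 ± 0.71 in the RhoC tumors, a difference of -0.29 with p = 0.38 (exact permutation test, 2-sided, over 293930 labelings, adjusted p = 0.50 over 4 pairs). The ratio ran from -1.82 in R-6 and -1.41 in R-13 to 1.53 in N-4. The difference was -0.09 without N-4 and 0.04 without the squamous cell carcinomas.

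Rpl3l, the copy of Rpl3 used in skeletal and heart muscle, was close to absent outside 4 tumors. N-17 held 13.1 CPM (902 reads), N-3 1.35 CPM (93 reads), R-1 0.62 CPM (55 reads) and R-10 0.36 CPM (21 reads). The other 17 tumors had at most 8 reads, and 5 of them had none. The same 4 tumors had the highest sums of the 12 skeletal muscle markers, with 7150 CPM in N-17, 924 in R-10, 584 in N-3 and 515 in R-1, against 1.16 to 106 in the rest. The part of muscle tissue in the Rpl3l reads was not tested. Rpl3 itself, near the catalytic center of the large subunit, was lowest but for 1 tumor in N-17 (236 CPM) and had a log2 fold change between the cohorts of 0.17 (SE 0.19), which was 0.06 without R-13. The ratio of Rpl3l to Rpl3 did not differ between cohorts beyond its spread (difference -1.06, exact permutation p = 0.34, adjusted p = 0.50), and the difference was -0.19 without N-17.

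The other paralogs were rare. Rpl39l, an autosomal copy of Rpl39 enriched in testis, ranged from 0.023 to 1.05 CPM over all tumors beside 64.5 to 259 CPM of Rpl39, and the ratio of the pair differed by -0.05 (exact permutation p = 0.93). Rps4l, an annotated processed pseudogene close in sequence to the X-linked Rps4x, ranged from 0.14 to 1.70 CPM in the controls and from 0.29 to 1.73 in the RhoC tumors, with 11 of 12 RhoC tumors above the control median of 0.42. Its ratio to Rps4x differed by 0.84 on the log2 scale (exact permutation p = 0.072, adjusted p = 0.29). Without N-17, the highest control, the difference was 1.18 (exact permutation test, adjusted p = 0.0085), and with only the 7 Gata4(loxP/+) controls, which also leave out N-17, it was 1.23 (exact permutation test, adjusted p = 0.012). The difference was 0.59 without N-9, and it did not pass the threshold in 4 of the 5 alternatives. Over all settings the adjusted p of that test reached 0.68. Reads of such copies can be lost or shared with their parent genes, because only uniquely placed reads were counted. Rpl10l, a testis copy of Rpl10, was not among the genes of the table, and Rpl10, which joins the large subunit last, had a log2 difference of 0.37 (SE 0.19) at an adjusted p of 0.27.

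Levels can be compared between members only per length, for which the deposited FPKM were used. The highest medians over the 21 tumors were 587 FPKM for Rps26, 575 for Rpsa and 573 for Rplp0. Among the 75 well-expressed coding members the lowest were Rpl29 with 20.7 FPKM, Rpl21 with 25.4 and Rps15a with 27.8, so the medians spanned 28.4-fold around a midpoint of 179 FPKM, and 44 of the 75 lay within 2-fold of it. Of all 80 members the lowest were Rpl3l, Rpl39l (0.24 FPKM) and Rps4l (0.73 FPKM). For each of the 74 pairs of neighbours in this order the ranges over the tumors overlapped. These ranges ignore that both members of a pair were measured in the same tumors, so they do not test the order. The order within single tumors was not examined.

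**Figure D5:**
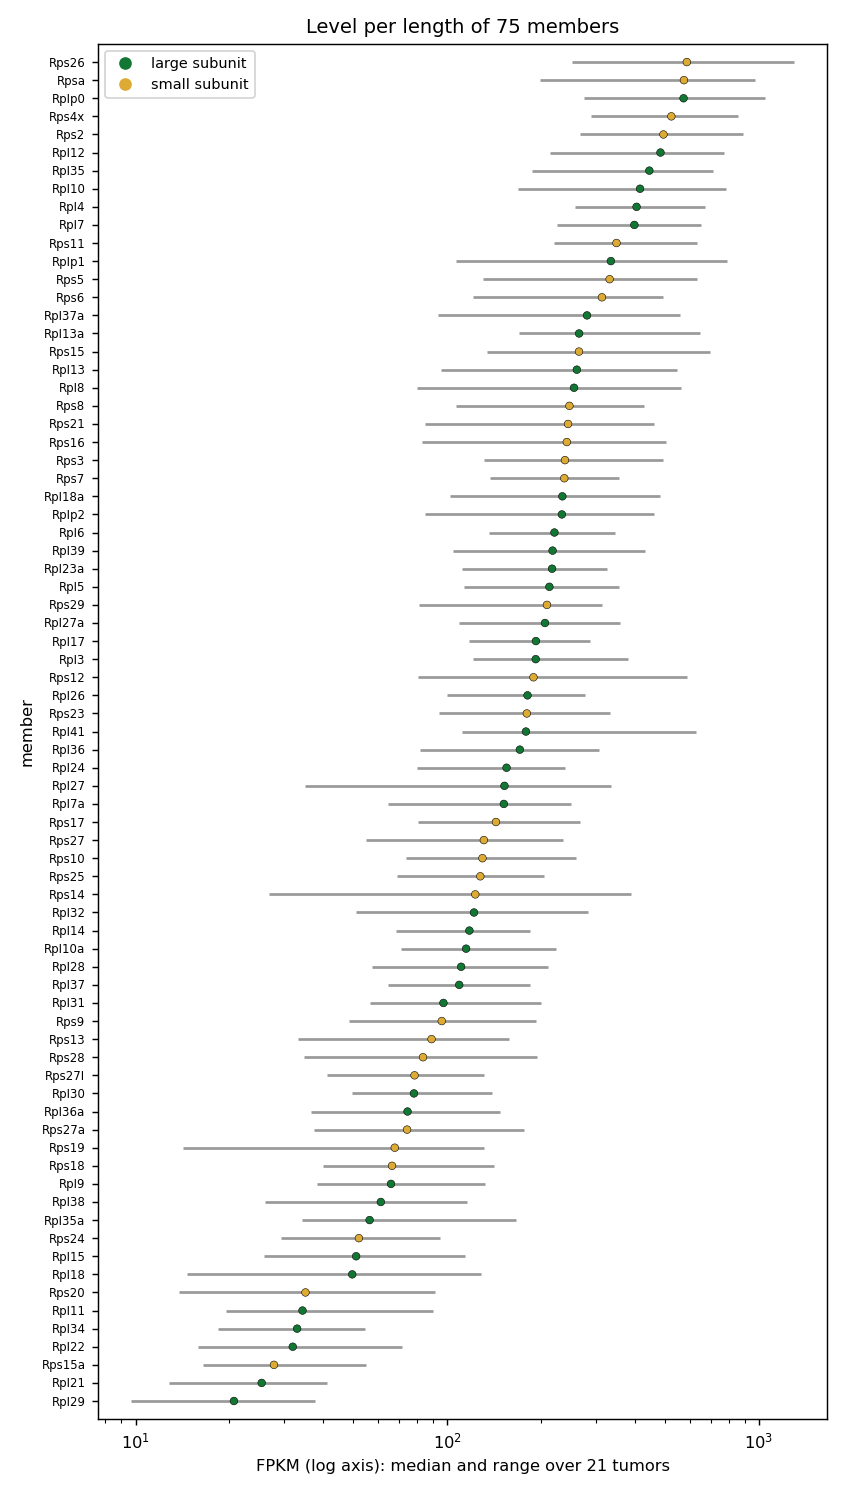
FPKM on a log axis (x) for 75 members (y), with the median over the 21 tumors as a point, the range as a line, and large- and small-subunit members in green and yellow. Medians ran from 20.7 FPKM for Rpl29 to 587 for Rps26, and neighbouring ranges overlapped.

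The gene length behind each FPKM, recovered from the counts and the deposited FPKM, was between 23.3% and 101% of the joined exons of that gene in GENCODE M21, and ran from 385 bases to 6035 in Rps15a, so the order also depends on the length model of the authors. Rpsa, a small-subunit protein also known as the laminin receptor, and Rplp0 had log2 fold changes of 0.10 (SE 0.24) and 0.15 (SE 0.21) between the cohorts, and without N-4 they had -0.02 and 0.05. Rps27a, made as a fusion with ubiquitin, had 0.20 (SE 0.20), or 0.06 without R-13. Rps19 had 0.46 (SE 0.26), and Rpl38 0.18 (SE 0.21), or 0.10 without R-6.

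The rest of the translation machinery gave the following counts. Of 22 translation factors with TOP mRNAs none passed the adjusted threshold and 1, the initiation factor subunit Eif3e, was at an unadjusted p under 0.05, with a log2 difference of -0.48 (SE 0.16, adjusted p = 0.12). That is 4.55% of the list, against 20.5% of all genes. Leaving out 1 tumor gave up to 4, all lower, without N-6. Their summed level ran from 9615 CPM in N-17 to 21182 in R-13, the same 2 tumors that bounded the ribosomal proteins. Ribosome biogenesis genes had the lowest sum in N-6 (2178 CPM) and the highest in N-15 (4996 CPM). Of 68 tested, 4 were higher and 9 lower at an unadjusted p under 0.05 (19.1%, against 20.5% of all genes), and none passed the adjusted threshold. With 1 tumor left out the higher genes numbered 0 (without N-8, where 11 were lower) to 9 (without N-15, where 6 were lower), and the lower genes 5 (without N-3 or N-7) to 14 (without N-6). The list's median of -0.03 ran from -0.14 without R-10 to 0.06 without N-15. It was also positive without N-7 (0.0024) or R-18 (0.0011). Examples are the helicase Ddx10 with -0.44 (SE 0.14) and the processome protein Rrp9 with 0.60 (SE 0.26), or 0.14 at the lowest over the alternatives. Ddx10 passed the adjusted threshold with only the Gata4(loxP/+) controls (adjusted p = 0.029) and with DESeq2 (adjusted p = 0.042). It did not pass with the counts of each mouse summed or with voom.

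Among 17 regulators of ribosomal protein mRNA the median was -0.02, with 2 higher and 3 lower at an unadjusted p under 0.05 (29.4%, against 20.5% of all genes) and none past the adjusted threshold. With 1 tumor left out the counts ran from 1 and 2 without N-4 to 3 and 4 without N-1. The median ran from -0.088 without N-4 to 0.041 without N-1, so its sign changed. Rptor, the mTORC1 scaffold, had 78.6 ± 14.8 CPM in the controls and 133 ± 67.5 in the RhoC tumors (log2 difference 0.75, SE 0.23, adjusted p = 0.099), and passed the threshold with DESeq2 (adjusted p = 0.035), and its log2 difference was 0.47 with the replicate block. Larp1b, a relative of the TOP-binding protein LARP1, had 27.5 ± 9.43 and 16.2 ± 4.50 CPM (-0.76, SE 0.20, adjusted p = 0.071), and passed the threshold without N-15 (adjusted p = 0.031) or R-12 (adjusted p = 0.047), with only the Gata4(loxP/+) controls (adjusted p = 0.026) and with DESeq2 (adjusted p = 0.013). Max, the partner of Myc, named after its values were seen, passed without N-15 (adjusted p = 0.0497), with only the Gata4(loxP/+) controls (adjusted p = 0.037) and with DESeq2 (adjusted p = 0.026). None of the 3 passed with the counts of each mouse summed or with voom. Of 20 mitotic genes only Top2a was at an unadjusted p under 0.05 (0.80, SE 0.33), which is 5% of the list against 20.5% of all genes, and the list's median was -0.12. That median ranged from -0.28 without R-10 to 0.07 without N-15. Without R-10 Top2a was no longer under that p, and 2 others, Tpx2 and Nusap1, were, both with negative values.

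The mitochondrial ribosome is a separate machine encoded by other nuclear genes. Its 78 tested genes, without 2 pseudogenes of the same names, had a median log2 fold change of 0.11, with 15 higher and 6 lower at an unadjusted p under 0.05 (26.9%, against 20.5% of all genes) and none past the adjusted threshold. Their sum spanned 1.70-fold over the tumors, against 2.88-fold for the cytosolic set. Taken by their names (Nduf, Uqcr, Cox4 to Cox8 and Atp5), 93 tested genes of the respiratory chain and ATP synthase had 18 higher and 6 lower, but 7 of them carry pseudogene names and 8 are Ndufaf assembly factors. Without these 15, the 78 others had a median of 0.18, with 17 higher and 4 lower (26.9%). The 13 genes encoded in mitochondria had a median of -0.58, all 13 negative and 3 of them at an unadjusted p under 0.05 (23.1%, against 20.5% of all genes). This direction rested on the control N-4, which had the most mitochondrial reads: without it the median was 0.15, 5 of the 13 were negative, and 1, with a positive value, was at an unadjusted p under 0.05. The nearest to the threshold were Mrpl38 with 1.10 (SE 0.25, adjusted p = 0.054) and the cytochrome oxidase subunit Cox8a with 0.87 (SE 0.20, adjusted p = 0.054). Both passed it without N-15 (adjusted p = 0.032 and 0.035) or R-12 (0.035 and 0.047), and Cox8a also without R-10 (0.045). Both also passed with only the Gata4(loxP/+) controls (0.033 and 0.029) and with DESeq2 (0.0022 and 0.0035). Over all genes edgeR called 43 in all tumors, 346 without N-15 and 438 with only the Gata4(loxP/+) controls, but 3 with the counts of each mouse summed, 3 without P497 and 0 with the replicate block, and voom with the mouse as a random effect called 3. Neither Mrpl38 nor Cox8a passed in these last 4 fits.

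The genes left out by position differed by far more between single tumors. Rpl19 (chr11:98026710-98030492) lay between 83.3 and 138 CPM in 7 controls and at 3048 in N-8 and 1344 in N-17, against 54.9 to 172 in the RhoC tumors. Rpl23 (chr11:97777527-97782437) lay at 2139 CPM in N-17 and at 112 to 265 in the other controls, against 81.5 to 186 in the RhoC tumors. Both lie near Erbb2, which had 2725 CPM in N-8 and 1456 in N-17, but also 2568 in N-6 and 1708 in N-3, where Rpl19 was at 88.9 and 83.3, and up to 1851 in the RhoC tumors. Their log2 differences of -2.46 (SE 0.63, adjusted p = 0.071) and -1.59 (SE 0.44, adjusted p = 0.084) passed the threshold only without N-15 (adjusted p = 0.044 and 0.0498). Rpl19 had -1.33 without N-8, and Rpl23 had -0.47 without N-17. Copy number was not analysed here.

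Of 107 tested ribosomal protein pseudogenes, 3 passed the adjusted threshold, 1 higher and 2 lower, against a background of 0.0932% of genes higher and 0.129% lower. Rps24-ps3, on the X chromosome, held 11.8 ± 8.60 CPM in the controls and 0.98 ± 0.36 in the RhoC tumors, a log2 difference of -3.59 (SE 0.51, adjusted p = 0.0020). It no longer passed in 5 of the 11 alternative fits: with the counts of each mouse summed (adjusted p = 0.056), without the tumors of P497 (adjusted p = 0.081), with voom (adjusted p = 0.19), and in the 8 tumors that share replicate numbers, with the block (adjusted p = 0.70) and with none (adjusted p = 0.37). The control N-7 (1.43 CPM) lay within the range of the RhoC tumors, 0.47 to 1.596, N-17 (0.32 CPM) lay below it, and the other 7 controls lay between 3.28 and 24.1. Its parent Rps24, a small-subunit protein, had 184 ± 69.1 and 180 ± 54.1 CPM and a log2 fold change of -0.04 (SE 0.21). Rpl19-ps12, named after its value was seen, had 36.0 CPM in N-8 and 9.38 in N-17, the 2 tumors with raised Rpl19, and at most 3.40 in the other controls, against 0.38 to 1.31 in the RhoC tumors (log2 difference -3.01, SE 0.59, adjusted p = 0.033). It was not run without single tumors. Rpl13-ps6 averaged 0.10 CPM in the controls and 0.28 in the RhoC tumors (log2 difference 1.41, SE 0.29, adjusted p = 0.046). It lost the threshold in 8 of the 11 alternative fits and without most single tumors, with an adjusted p of up to 0.081 without N-7. Reads of pseudogenes may come from their parent genes or other copies, so these values are uncertain.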

How the data were processed

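Total RNA of 21 tumors was depleted of ribosomal RNA and sequenced as stranded libraries by the authors. According to their notes, reads passed FastQC 0.11.5 and Trim Galore 0.5.0, were aligned to GRCm38.p6 with STAR 2.6.0c, and uniquely placed reads were counted per gene with HTSeq 0.6.1p2. The strand setting and annotation release are not given in the sources used here. Deposited were raw counts per tumor and a table with FPKM per tumor computed by the authors. That table also holds fold changes and p-values of their own comparison, which were not used.

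Counts of 38730 genes were scaled with TMM and tested with edgeR 4.0.16 (quasi-likelihood, R 4.3.3) in 9 control and 12 RhoC tumors, after filterByExpr, with Benjamini-Hochberg adjustment over 19315 genes and a threshold of 0.05. The test was tried on simulated counts first. Alternatives used DESeq2 1.42.0, limma 3.58.1 voom with the mouse as a random effect (within-mouse correlation 0.27), library-size scaling, TMM without the members, no filter, counts summed per mouse, fewer tumors and a block on replicate numbers. The spread of the members and the other lists without single tumors were added after seeing the data. For ratios and log2 CPM 2 reads were added. FPKM served only for levels between genes. Total counts of 47309780 to 100741339 gave each of the 75 well-expressed coding members at least 658 reads in every tumor.

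Named genes were the 5 members with the smallest p in each direction, paralogs and their partners, the 3 highest and lowest by FPKM, members with known roles, the 3 with the largest SD, and the leading genes of each list. The members and lists were chosen with earlier results of these data known. Tumors of 1 mouse were treated as separate samples in the test, so p-values partly measure spread within mice. The label of R-21 gives a mouse that the study's sample list has for another tumor. Sequences are from RefSeq (GRCm38.p6), which matched 58 members and not the other 22.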

Additional observations from a re-analysis of the deposited data

Results flagged for a closer look

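Among the 9 controls, 55 values were searched for a tumor far from the others by Dixon's ratio of its gap to the whole range (critical value 0.493 for 9 samples), and 5 exceeded it. By chance about 1 in 20 groups would. In N-17 the log2 CPM of Rpl39 was 6.37, against 7.03 to 7.37 in the other controls. Rpl11 in N-17 was at 5.76, against 6.39 to 6.90. Rpl23, one of the genes left out beside Erbb2, was at 11.06 in N-17 and at 6.81 to 8.05 in the others. In N-4 the log2 CPM of Rpl27 was 5.75, against 6.85 to 7.95. Cox8a in N-4 was at 4.58, against 5.69 to 6.39. These are the 2 controls that held the lowest sums of the ribosomal protein genes, N-17 with the most muscle and adipocyte marker reads and N-4 with the steepest relation to GC content. The part of either in these values was not tested.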

How the results depend on the processing

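No member was called in 10 of 11 alternative fits or in any of the 21 fits without a single tumor, and DESeq2 called 2. The members' median ranged from -0.08 to 0.13 over the 11 fits and from 0.03 to 0.20 over the single tumors left out, and the ratio of summed CPM from 0.93 to 1.07 and from 1.01 to 1.13. The count at an unadjusted p under 0.05 was 3 to 11 over the tumors left out and 1 to 12 over the 11 fits: 12 (8 higher, 4 lower) with only Gata4(loxP/+) controls, where 23.5% of all genes were, 4 (2 and 2) per mouse (12.7%), 3 without P497 (11.6%) and 7 (2 and 5) without the squamous cell carcinomas (15.3%). Of 49 named genes, 33 kept their direction in every alternative and 16 changed it in some. The cause was not tested.

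Reversed values, as log2 differences, were as follows. Without the squamous cell carcinomas they were 0.059 for Rps27l, -0.057 for Rpl3, -0.18 for Rpl39, -0.0017 for Rps27, -0.084 for Rpsa, -0.089 for Rplp0, -0.20 for Rpl11, -0.068 for Rps27a, -0.23 for Rps12, 0.088 for Mdm4 and 0.045 for the ratio of Rps27l to Rps27. With counts summed per mouse they were 0.011 for Rps27l, -0.044 for Rpl3, -0.10 for Rpl39, -0.044 for Rpsa, -0.035 for Rplp0, -0.086 for Rpl11, -0.029 for Rps12 and 0.094 for Mdm4. Without P497 they were 0.040 for Rps27l, -0.022 for Rpl3, -0.081 for Rpl11 and 0.17 for Mdm4. With voom they were 0.040 for Rps27l, -0.040 for Rpl39, -0.011 for Rpl11 and 0.0049 for Mdm4. With only Gata4(loxP/+) controls the log2 fold change of Rpl39 was -0.010 and the log2 fold change of Mdm4 was 0.0015, and with no filter the log2 fold change of Rps4x was 0.0066.

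With 1 tumor left out, the ranges of genes that changed sign were -0.44 to 0.22 for Rpl39l, -0.13 to 0.038 for Rps27l, -0.038 to 0.14 for Rpl39, -0.090 to 0.096 for Rps4x, -0.016 to 0.18 for Rpsa, -0.25 to 0.050 for Rplp2, -0.037 to 0.20 for Rpl11, -0.0076 to 0.30 for Rps12, -0.12 to 0.087 for Rps24, -0.15 to 0.016 for Mdm4 and -0.30 to 0.21 for the ratio of Rpl39l to Rpl39.

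The replicate numbers 1, 6, 7 and 15 occur in both cohorts. Deviations of same-numbered tumors correlated at -0.24, -0.18, -0.0029 and 0.022 over genes. Differently numbered tumors were not compared, so these values cannot tell whether the numbers pair them. By their labels, same-numbered tumors of the 2 cohorts came from different mice. With the replicate block over these 8 tumors, 0 members were called and 1 had an unadjusted p under 0.05 (7.11% of all genes), and without the block the counts were 0 and 2 (11.2%). Neither fit called any gene. Reversed values with the block were 0.29 for Rps4x, -0.12 for Rpl11 and -0.23 for Rps12, and the log2 fold change of Rpsa was -0.0016. Without the block, an alternative added after seeing the data, they were 0.28 for Rps4x, 0.0058 for Rpl36a, 0.012 for Rpl5, -0.093 for Rpl11 and -0.11 for Rps12.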
